A study of Mus musculus with 24 samples.

Results

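The genes described here are 5 of the 49172 genes in the tables: the secreted neurotrophic factors Bdnf (ENSMUSG00000048482), Ntf3 (ENSMUSG00000049107) and Gdnf (ENSMUSG00000022144), and the neurotrophin-binding receptors Ngfr (ENSMUSG00000000120) and Sort1 (ENSMUSG00000068747). They were chosen by name for their place in neurotrophic signalling, and each gene's value is the sum over its annotated transcripts. RNA was sequenced from Ocy454 cells, an established mouse osteocytic line, so every group comes from 1 line and 1 cell background. Cells had received lysophosphatidic acid and 1,25-dihydroxyvitamin D together ("both agents"), lysophosphatidic acid alone (LPA), 1,25-dihydroxyvitamin D alone (1,25D) or vehicle, for 2 h or for 8 h, with 3 libraries in each of the 8 groups. The series addresses how the pair of agents raises synthesis of the hormone FGF23, and through which signalling pathways. The sources used here give no doses.

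Neurotrophins are made as larger precursors that proteases cut to the mature factor. The mature factors act through the Trk receptor kinases, with the receptor encoded by Ngfr as a shared partner, while precursors bind Ngfr together with sortilin, the product of Sort1. GDNF belongs to another ligand family and signals through the co-receptor Gfra1 and the receptor kinase Ret. In bone, neurotrophic factors are studied mostly as signals to nerve fibres, and Bdnf is widely used as an example of a gene with many alternative first exons whose transcription follows calcium and cAMP signals.

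Which single agent a library received is uncertain. The deposited tables carry treatment letters in their names, and for the single agents these are the other way round from the sample titles. Cyp24a1, the vitamin D-degrading enzyme and a classical target of 1,25D, had 25, 48 and 29 counts in the 8 h libraries labelled LPA and 35, 28 and 24 with both agents. It had 0, 1 and 0 in those labelled 1,25D and 1, 0 and 0 with vehicle. Vdr, which encodes the vitamin D receptor, averaged 254 ± 6.88 CPM (counts scaled to library size by TMM) at 8 h in the libraries labelled LPA, 72.3 ± 1.91 CPM in those labelled 1,25D and 125 ± 11.8 CPM with vehicle (SD, n = 3 each). Both genes go against the titles, so the single treatments are called "labelled LPA" and "labelled 1,25D" throughout, and any direction tied to one of them holds for the libraries so labelled. What is given for the pair of agents against vehicle, and for their interaction, is the same whichever way round the single labels are read.

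Libraries held 32.80 to 33.67 M counts assigned to genes, and 9.01 to 16.9% of counts were mitochondrial, the highest share being that of vehicle replicate 2 at 8 h. At this depth 3 counts correspond to between 0.0838 and 0.0967 CPM. The labels neither name a batch nor say whether the replicates are separate cultures. A p-value here thus reflects no more than the scatter of libraries within groups of 3. That scatter is pooled over all 8 groups and drawn towards the values of other genes. The osteocyte markers fixed for the check summed to 56.8 to 111 TPM (a level per transcript length and library size), of which Pdpn and Runx2 made up most. Dmp1 had 64 to 149 counts per library, while Mepe had 1 count in all, Sost 30 and Fgf23 17, so the defining late-osteocyte genes were at or near 0. Neuron markers summed to 2.52 to 5.45 TPM, with Rbfox3 and Snap25 at a median of 0. Schwann cell and glial markers summed to 1.41 to 4.46 TPM, with Sox10 at a median of 0. Macrophage markers summed to 11.2 to 19.3 TPM, nearly all of it Cd68, with Adgre1 and Tyrobp at a median of 0.

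Upstream sequence is shown first because Bdnf and Gdnf are the members whose levels changed. RefSeq (GRCm38.p6) gave 12 promoter windows for 4 of the 5 genes, each running from 250 bases before a start site to 50 after it: 7 for Bdnf, 2 for Gdnf, 2 for Ntf3 and 1 for Ngfr. Searched on both strands, 2 of the 12 held the half-site of the cAMP response element, CGTCA on one strand and TGACG on the other, which 20.8% of 32815 windows across the genome hold. These were the Bdnf window that begins the annotated transcript Bdnf-209, chr2:109692186-109692485 on the plus strand, with the half-site 35 bases before the start, and a Gdnf window, chr15:7809798-7810097 on the plus strand, with the half-site 50 bases before the start. Capitals mark the half-site.
Bdnf: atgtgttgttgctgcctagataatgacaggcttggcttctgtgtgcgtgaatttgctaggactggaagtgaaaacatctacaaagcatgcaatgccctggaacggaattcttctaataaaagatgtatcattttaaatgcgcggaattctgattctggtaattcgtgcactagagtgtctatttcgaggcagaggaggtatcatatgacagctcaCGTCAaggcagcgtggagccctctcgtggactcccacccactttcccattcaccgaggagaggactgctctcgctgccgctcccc
Gdnf: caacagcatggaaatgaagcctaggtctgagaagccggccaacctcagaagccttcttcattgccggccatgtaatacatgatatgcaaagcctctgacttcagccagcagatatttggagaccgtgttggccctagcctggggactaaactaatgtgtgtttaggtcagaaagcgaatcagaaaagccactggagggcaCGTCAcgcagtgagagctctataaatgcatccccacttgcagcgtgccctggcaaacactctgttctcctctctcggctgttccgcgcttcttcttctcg
The other motifs searched were the full cAMP response element TGACGTCA, the AP-1 site TGACTCA or TGAGTCA, the EGR site GCGTGGGCG or GCGGGGGCG, the NF-kB consensus site, the vitamin D receptor direct repeat with a spacer of 3 bases, and the E-box CACGTG. The full element contains the half-site on both strands. Of these other motifs, as spelled here, only the E-box matched, once, in an Ntf3 window at 231 bases before the start. Genome-wide the shares were 1.79% of windows for the full element, 5.20% for AP-1, 3.47% for EGR and 7.15% for the E-box. They were 0.244% for the NF-kB strings and 0.0122% for the direct-repeat strings. None of the windows begins at the start of Bdnf-205, the transcript to which most Bdnf counts were assigned, and neither Gdnf window begins at the start of Gdnf-201, the annotated transcript that all Gdnf counts belong to.

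Of the 5 genes, 3 passed the filter on low counts and were tested among 16424 genes: Bdnf, Gdnf and Sort1. At 2 h both Bdnf and Gdnf were higher with both agents and in the libraries labelled 1,25D than with vehicle. At 8 h Gdnf was higher than vehicle in all 3 treated groups, while Bdnf was higher with both agents only among the 3 comparisons with vehicle. Sort1 passed the test in no comparison. A gene is called here when edgeR's quasi-likelihood test gave a Benjamini-Hochberg adjusted p below 0.05 over all tested genes. At 2 h 2 of the 3 tested members were called with both agents, where 19.9% of all tested genes were called. With the label 1,25D it was also 2, where 13.9% were called, and with the label LPA 1, where 0.785% were called. At 8 h the counts were 2 with both agents (background 16.8%), 1 with the label LPA (background 12%) and 1 with the label 1,25D (background 16.2%).

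**Figure D1:**
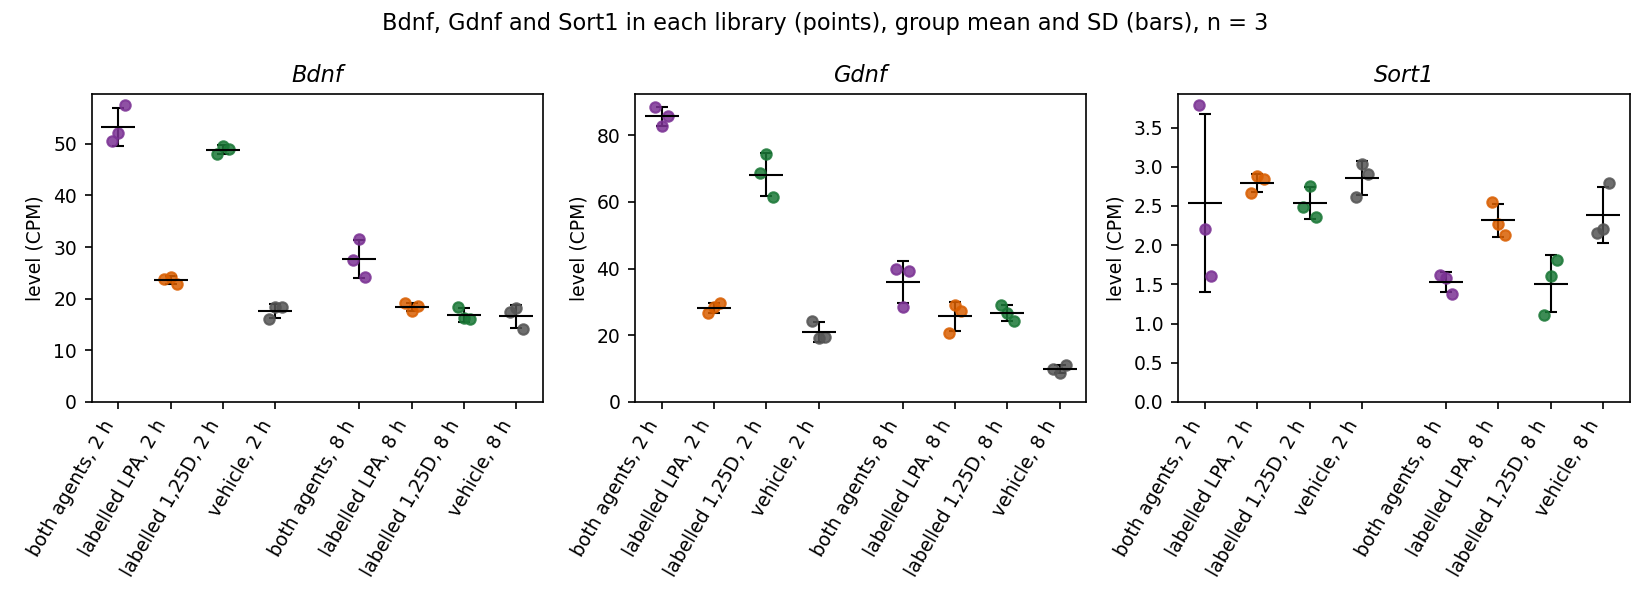
Level in CPM of Bdnf, Gdnf and Sort1 in each library (points), with the group mean and SD (bars, n = 3), at 2 h and 8 h. Bdnf and Gdnf are highest with both agents at 2 h, with means of 53.3 and 85.6 CPM, and the 3 Sort1 libraries of that group are spread over 1.60 to 3.79 CPM.

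Bdnf encodes brain-derived neurotrophic factor, the ligand of TrkB. At 2 h it stood at 50.5, 52.0 and 57.5 CPM with both agents, against 15.97, 18.4 and 18.4 CPM with vehicle. In the libraries labelled 1,25D it stood at 47.9, 49.6 and 49.1 CPM, and in those labelled LPA at 23.9, 24.2 and 22.8 CPM. All 3 treated groups lay wholly above vehicle, which 35.2% of tested genes did, in one direction or the other, with both agents, 30.1% with the label 1,25D and 23.4% with the label LPA. The log2 fold change over vehicle was 1.60 ± 0.10 with both agents (SE, 3.03-fold, adjusted p = 1.09e-10) and 1.47 ± 0.10 with the label 1,25D (2.78-fold, adjusted p = 4.59e-10). With the label LPA it was 0.43 ± 0.10 (1.34-fold, adjusted p = 0.0434), and this call is weak: leaving out any 1 of the 6 libraries compared ended it, with an adjusted p of 0.314 and a log2 change of 0.36 without vehicle replicate 1. It was also lost with the replicate block (adjusted p = 0.0569), length-scaled TPM (0.0920) and a fit of the compared groups alone (0.1003).

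Both agents together did not differ by the test from the label 1,25D at 2 h (log2 difference 0.13 ± 0.10, adjusted p = 0.802; 0.767% of genes called), although the 2 groups did not overlap, as was so for 14.5% of tested genes. Over the label LPA the log2 difference was 1.17 ± 0.10 (adjusted p = 1.55e-08, 18.7% of genes called). The interaction, which is the effect of both agents minus the summed effects of the single treatments on the log2 scale, was −0.30 ± 0.14 (adjusted p = 0.996), in a comparison that called 0.0365% of genes. On the linear scale the mean of 53.3 CPM with both agents compared with 54.9 CPM for vehicle plus the 2 single differences, a difference of −1.58 ± 2.36 CPM (SE).

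At 8 h Bdnf had come down towards vehicle. It stood at 27.5, 31.5 and 24.2 CPM with both agents, 19.2, 17.6 and 18.5 CPM with the label LPA and 18.3, 16.2 and 15.97 CPM with the label 1,25D, against 17.4, 18.2 and 14.1 CPM with vehicle. The libraries with both agents lay above all others of that time, whereas both single treatments overlapped vehicle. Such a separation, in one direction or the other, was found for 26.4% of tested genes against vehicle, 31.9% against the label 1,25D and 34.6% against the label LPA. Bdnf was 0.74 ± 0.10 higher on the log2 scale with both agents than with vehicle (1.67-fold, adjusted p = 9.96e-06). The single treatments gave 0.16 ± 0.10 for the label LPA (adjusted p = 0.306) and 0.03 ± 0.10 for the label 1,25D (adjusted p = 0.897).

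The 8 h level with both agents was also above each single treatment. The log2 difference was 0.72 ± 0.10 over the label 1,25D (adjusted p = 2.89e-05, 9.18% of genes called) and 0.59 ± 0.10 over the label LPA (adjusted p = 0.000216, 22.9% of genes called). The interaction was 0.56 ± 0.14 (adjusted p = 0.0369; 7.68% of genes called), and on the linear scale 27.7 CPM compared with 18.7 CPM for vehicle plus the 2 single differences, a difference of 8.98 ± 2.61 CPM (SE). The interaction's call did not survive every omission: its adjusted p was 0.113 without vehicle replicate 2, 0.118 and 0.0735 without the label LPA replicates 2 and 3, 0.0737 and 0.0942 without the label 1,25D replicates 2 and 3, and 0.0525 and 0.149 without replicates 1 and 2 of both agents. In a fit of the compared groups alone it was 0.142. Its log2 value stayed between 0.46 and 0.67 in all alternatives run.

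A change with time was not shown for Bdnf in vehicle cells, with 16.6 ± 2.15 CPM at 8 h and 17.6 ± 1.40 CPM at 2 h (SD; log2 difference −0.09 ± 0.10, adjusted p = 0.621; 14.6% of genes called). The effect of the label 1,25D on Bdnf was smaller at 8 h than at 2 h, with a difference of −1.45 ± 0.14 log2 units (adjusted p = 1.19e-06; 4.17% of genes called). The effect of both agents differed by −0.86 ± 0.14 (adjusted p = 0.000275; 9.68% called), and that of the label LPA by −0.27 ± 0.14 (adjusted p = 0.193; 6.76% called).

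**Figure D2:**
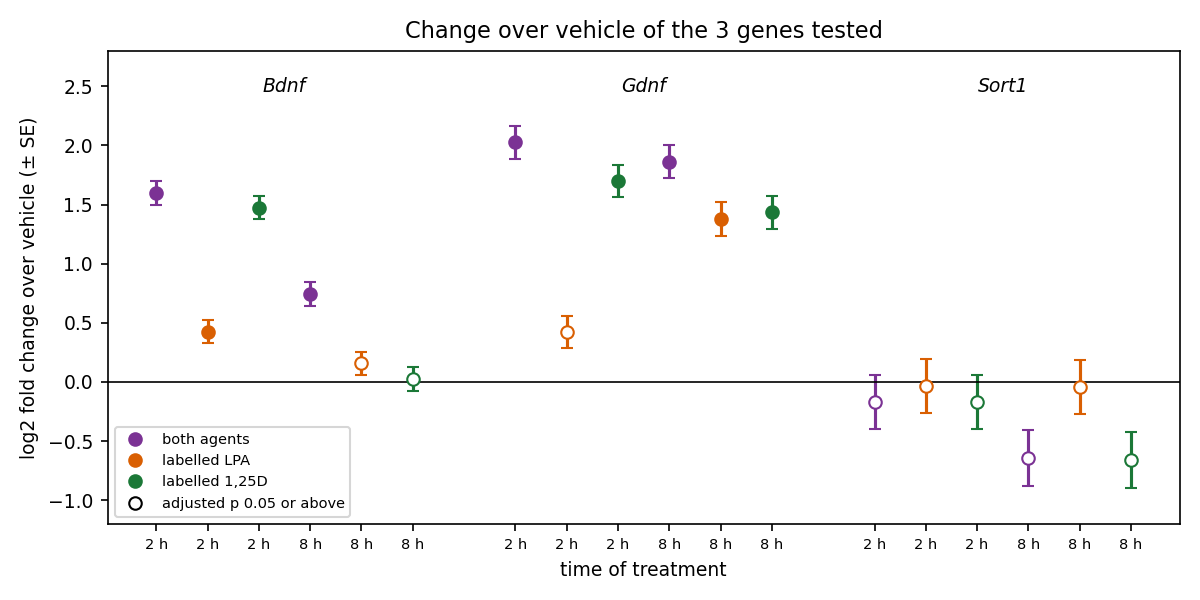
Log2 fold change over vehicle (± SE) of the 3 tested genes for both agents, the label LPA and the label 1,25D, at 2 h and 8 h; filled points have an adjusted p below 0.05. For Bdnf the label 1,25D stands at 0.03 at 8 h and 1.47 at 2 h, whereas for Gdnf it stands at 1.44 at 8 h and 1.70 at 2 h.

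Ordered by mean level, the 8 Bdnf groups ran from 16.6 CPM with vehicle at 8 h to 53.3 CPM with both agents at 2 h. The lowest 4 means, those of vehicle at both times and of both single labels at 8 h, lay between 16.6 and 18.4 CPM, and each overlapped the next above it. The label LPA at 2 h (23.6 CPM) and both agents at 8 h (27.7 CPM) overlapped each other and stood apart from the groups on either side. The label 1,25D at 2 h (48.9 CPM) and both agents at 2 h overlapped no other group. Per length, Bdnf ranged from 4.71 ± 0.295 TPM with vehicle at 8 h to 15.7 ± 0.628 TPM with both agents at 2 h.

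The annotation holds 11 Bdnf transcripts that begin at 9 start sites, and 1 of them took nearly all the counts. Bdnf-205, which begins at the sixth start from the 5′ end of the gene, was assigned 93.0% of Bdnf counts over all libraries and between 81.8% and 99.1% in a single library. Its level was 14.5 ± 0.431 TPM with both agents and 13.7 ± 0.165 TPM with the label 1,25D at 2 h, against 5.11 ± 0.162 TPM with vehicle. The label LPA gave 6.53 ± 0.357 TPM at that time. At 8 h it was 7.02 ± 0.384 TPM with both agents, 5.12 ± 0.374 TPM with the label LPA and 4.53 ± 0.223 TPM with the label 1,25D, against 4.37 ± 0.389 TPM with vehicle. The changes of the gene were thus largely those of this transcript's assigned counts.

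Bdnf-209, whose promoter window with the half-site is printed above, held 3.67% of the counts. It stood at 0.843 ± 0.315 TPM with both agents and 0.333 ± 0.295 TPM with the label 1,25D at 2 h, against 0.180 ± 0.117 TPM with vehicle. Libraries of a group differed widely for it, and Bdnf-201, with 2.13% of the counts, was likewise low and variable. Transcripts of Bdnf share their coding exon, so the split between them rests on reads from short first exons. The antisense gene model Gm45346 overlaps 896 bases of Bdnf exons, but was assigned 124 counts over all 24 libraries, beside 22142 for Bdnf.

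**Figure D3:**
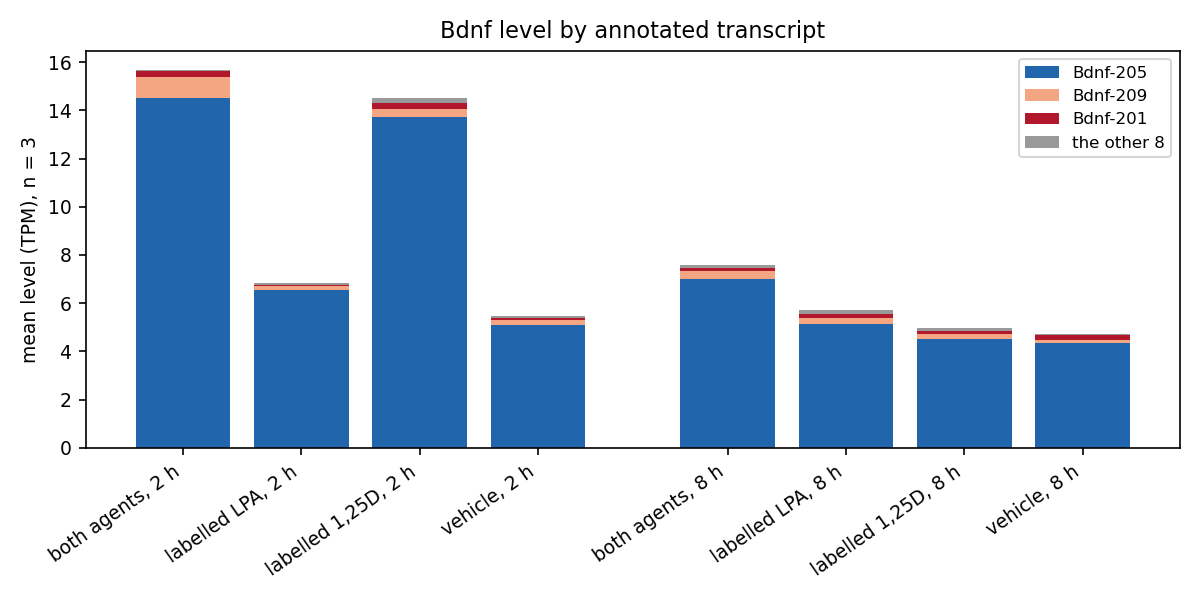
Mean Bdnf level in TPM (n = 3 libraries) by group, stacked by annotated transcript. Bdnf-205 makes up most of each bar, from 4.37 TPM with vehicle at 8 h to 14.5 TPM with both agents at 2 h.

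Gdnf encodes glial cell line-derived neurotrophic factor. At 2 h it stood at 88.4, 82.9 and 85.6 CPM with both agents, 26.6, 28.5 and 29.6 CPM with the label LPA and 68.6, 74.5 and 61.6 CPM with the label 1,25D, against 24.4, 19.2 and 19.5 CPM with vehicle. Each treated group lay wholly above vehicle, and both agents lay wholly above the label 1,25D. Groups apart in this way, in either direction, were found for 35.2% of tested genes with both agents, 23.4% with the label LPA and 30.1% with the label 1,25D against vehicle, and for 14.5% with both agents against the label 1,25D. The log2 fold change over vehicle was 2.03 ± 0.14 with both agents (4.07-fold, adjusted p = 4.10e-10) and 1.70 ± 0.14 with the label 1,25D (3.24-fold, adjusted p = 7.62e-09). With the label LPA it was 0.43 ± 0.14 (1.34-fold, adjusted p = 0.167), which passed the threshold only when no filter on low counts was used (adjusted p = 0.0218).

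At 2 h the log2 difference of both agents over the label LPA was 1.60 ± 0.14 (adjusted p = 1.85e-08). Over the label 1,25D the difference was 0.33 ± 0.13 (adjusted p = 0.438), and the interaction was −0.10 ± 0.19 (adjusted p = 0.996). On the linear scale the mean of 85.6 CPM with both agents compared with 75.4 CPM for vehicle plus the single differences, a difference of 10.2 ± 4.49 CPM (SE).

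At 8 h vehicle cells held less Gdnf, 9.87 ± 1.25 CPM at 8 h and 21.0 ± 2.93 CPM at 2 h (SD; log2 difference −1.09 ± 0.14, adjusted p = 1.47e-05). The 8 h libraries stood at 39.9, 28.6 and 39.2 CPM with both agents, 20.7, 29.1 and 27.2 CPM with the label LPA and 29.1, 26.8 and 24.3 CPM with the label 1,25D, against 9.87, 8.63 and 11.1 CPM with vehicle. All 9 treated libraries lay above the 3 of vehicle. The same separation, in one direction or the other, held for 26.4% of tested genes with both agents, 28.3% with the label LPA and 36.4% with the label 1,25D. The log2 fold change over vehicle was 1.86 ± 0.14 with both agents (3.63-fold, adjusted p = 2.55e-09), 1.38 ± 0.14 with the label LPA (2.60-fold, adjusted p = 3.62e-07) and 1.44 ± 0.14 with the label 1,25D (2.704-fold, adjusted p = 4.85e-07).

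The 2 single treatments at 8 h overlapped each other in Gdnf, and the lowest library with both agents, replicate 2, lay within their range. The log2 difference of both agents was 0.49 ± 0.13 over the label LPA (adjusted p = 0.0124) and 0.43 ± 0.13 over the label 1,25D (adjusted p = 0.0493). Neither call is firm. Without replicate 1 of both agents the adjusted p was 0.0508 against the label LPA and 0.186 against the label 1,25D. The call against the label 1,25D was also lost without replicate 3 of both agents (adjusted p = 0.110) and without replicates 1, 2 or 3 of the label 1,25D (adjusted p = 0.0848, 0.121 and 0.206). It was lost as well with median-of-ratios scaling (adjusted p = 0.0556), the replicate block (0.0664), length-scaled TPM (0.0642) and a fit of the compared groups alone (0.172), and held with no filter on low counts, with DESeq2 and without replicate 2 of both agents. The call against the label LPA was lost in a fit of the compared groups alone (adjusted p = 0.135).

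The Gdnf interaction at 8 h was −0.95 ± 0.19 on the log2 scale (adjusted p = 0.0198): the increase with both agents was smaller than the sum of the single increases in log2 units. In CPM the mean with both agents was 35.9, beside 42.5 for vehicle plus the single differences, a difference of −6.61 ± 4.74 CPM (SE). Bdnf had an interaction of the other sign at this time, 0.56. The call for Gdnf was lost without vehicle replicate 2 (adjusted p = 0.0575), the label 1,25D replicate 1 (0.0502), the label LPA replicates 2 and 3 (0.0722 and 0.0566) and replicate 2 of both agents (0.0612), and in a fit of the compared groups alone (0.132), with log2 values between −1.06 and −0.81 over all alternatives run.

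Between the times, the effect of the label LPA on Gdnf differed by 0.95 ± 0.19 log2 units, being larger at 8 h (adjusted p = 0.00529). The effects of the label 1,25D (difference −0.26 ± 0.19, adjusted p = 0.526) and of both agents (difference −0.16 ± 0.19, adjusted p = 0.710) were not shown to differ. The 8 h effects are set against a vehicle level that was itself lower, and in CPM the label LPA was at 25.7 ± 4.43 at 8 h and 28.3 ± 1.52 at 2 h (SD). From lowest to highest mean, vehicle at 8 h stood apart below all other groups. Vehicle at 2 h and the next 4 groups, up to both agents at 8 h (35.9 CPM), overlapped each neighbour, and the label 1,25D and both agents at 2 h stood apart at the top. Per length Gdnf ran from 3.12 ± 0.762 TPM with vehicle at 8 h to 27.4 ± 1.69 TPM with both agents at 2 h, the highest level among the 5 genes. The annotation holds 1 Gdnf transcript, so its counts were not split.

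Ntf3, which encodes neurotrophin-3, the ligand of TrkC, was at the limit of detection and was not tested. It had 7 counts in all, at most 2 in a library, and 0 in 18 of the 24 libraries. In no group did the 3 libraries together exceed 2 counts, so no direction can be read from them. With the label 1,25D at 2 h there were 2 counts against 1 with vehicle, a ratio of 2.13 with an exact 95% interval of 0.111 to 126, which covers counting error only.

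Ngfr, the neurotrophin receptor without a kinase domain, was also too low to test, with 27 counts in all and 0 in 11 libraries. At 8 h it had 1, 0 and 4 counts with both agents, 6, 0 and 2 with the label LPA and 0, 0 and 2 with the label 1,25D, against 0, 1 and 0 with vehicle. The label LPA libraries thus held 8 counts and vehicle 1, a ratio of 7.86 with an exact 95% interval of 1.05 to 349, but 6 of the 8 came from replicate 1 and replicate 2 had none. At 2 h there were 4 counts with both agents, 4 with the label 1,25D and 0 with the label LPA, against 3 with vehicle.

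Sort1, the sorting receptor that binds neurotrophin precursors, was low but measurable, with 37 to 125 counts per library and 0.239 to 0.507 TPM as group means. At 8 h it stood at 1.62, 1.58 and 1.38 CPM with both agents and 1.10, 1.61 and 1.81 CPM with the label 1,25D, against 2.16, 2.20 and 2.79 CPM with vehicle. The label LPA gave 2.55, 2.26 and 2.13 CPM. Both agents and the label 1,25D lay wholly below vehicle, and the label LPA overlapped it. Of all tested genes 26.4% with both agents and 36.4% with the label 1,25D were likewise apart from vehicle, in one direction or the other. The log2 change was −0.65 ± 0.24 with both agents (adjusted p = 0.0692) and −0.66 ± 0.24 with the label 1,25D (adjusted p = 0.0619), neither past the threshold with edgeR, whereas DESeq2 gave an adjusted p of 0.0498 for the label 1,25D. With the label LPA it was −0.04 ± 0.23 (adjusted p = 0.921).

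At 2 h the libraries of Sort1 stood at 3.79, 2.21 and 1.60 CPM with both agents, 2.66, 2.88 and 2.84 CPM with the label LPA and 2.49, 2.76 and 2.36 CPM with the label 1,25D, against 2.61, 3.04 and 2.91 CPM with vehicle. The 3 libraries with both agents were spread beyond the range of all other groups of that time on both sides, and no change passed the test. The fitted change with both agents at 2 h, −0.17 ± 0.23, took values between −0.58 and 0.07 over the alternatives run. Counts were assigned mainly to Sort1-203 (56.3%) and Sort1-201 (43.1%), but each took between 0% and 100% of a library's Sort1 counts. The pair begin a few bases apart, so only the sum over the gene is used here. The antisense model Gm12523 overlaps 338 bases of Sort1 exons and had 9.24 counts in all.

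Among 11312 genes averaging at least 1 CPM over the 24 libraries, those whose log2 levels followed each member most closely were listed by Pearson's r, as a description in which all genes share the same groups and libraries. For Bdnf they were Btg2 (r = 0.968), Pvr (0.962) and Fermt2 (0.960). For Gdnf they were Clcf1 (r = 0.977), Cebpd (0.974) and Trib1 (0.973). For Sort1 the values were lower, with Adh1 at 0.826, Sept3 at 0.824 and Lrrn4cl at 0.819. The 99th percentile over all candidates was 0.864 for Bdnf, 0.872 for Gdnf and 0.689 for Sort1.

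Other genes of the pathway were taken from 7 lists, and their counts can be read against the share of all tested genes called in the same direction. That share at 2 h was 9.88% higher and 10% lower with both agents, 7.06% and 6.85% with the label 1,25D, and 0.597% and 0.189% with the label LPA. At 8 h it was 9.54% higher and 7.25% lower with both agents, 7.89% and 8.32% with the label 1,25D, and 6.62% and 5.38% with the label LPA. The median log2 change over vehicle of all tested genes lay between −0.00409 and 0.0251 in the 6 comparisons. Among ligands, Ntf5, which encodes neurotrophin-4, was tested beside Bdnf and passed in no comparison with vehicle, at 8 to 67 counts per library. The median of the 2 tested ligands ran from −0.03 with the label 1,25D at 8 h to 0.63 with the same label at 2 h.

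The Trk receptors of BDNF and neurotrophin-3 were scarce. Ntrk2, which encodes TrkB, the receptor for BDNF, had 0 to 9 counts per library. Ntrk3, which encodes TrkC, the receptor for neurotrophin-3, had 16 to 56 counts per library. It averaged 0.525 ± 0.0210 CPM with both agents at 8 h, against 1.45 ± 0.0767 CPM with vehicle, a log2 change of −1.46 ± 0.24 (adjusted p = 0.0001).

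The list of receptors and co-receptors also holds adaptors, binding proteins and other genes placed beside them. Of the 10 genes tested among its 15, 3 fell with both agents at 8 h: Ntrk3, Kidins220 and Maged1. Kidins220 is a scaffold that Trk receptors phosphorylate, and Maged1 binds the product of Ngfr. Of these 3 only Ntrk3 encodes a receptor. With the label 1,25D at 8 h 3 fell, Kidins220 (−0.25 ± 0.07), Maged1 (−0.45 ± 0.08) and Bex3, and Sorcs2 rose (1.05 ± 0.32, adjusted p = 0.0300). Sorcs1 rose (1.20 ± 0.38, adjusted p = 0.0420) and Maged1 fell with the label LPA at that time. Both Sorcs genes were low, with 15 to 94 counts per library for Sorcs1 and 14 to 56 for Sorcs2. At 2 h Ngrn alone fell, by 0.35 ± 0.11 with both agents and 0.63 ± 0.12 with the label 1,25D, and none passed with the label LPA. Bex3, Sorcs1 and Sorcs2 were named after their values were seen. The list median ran from −0.32 with both agents at 8 h to −0.01 with both agents at 2 h.

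GDNF's own receptors differed in level. Gfra1, its co-receptor, averaged 67.9 ± 4.50 CPM with both agents and 59.1 ± 3.27 CPM with the label LPA at 8 h, against 42.5 ± 3.01 CPM with vehicle. Its log2 change was 0.68 ± 0.07 with both agents (adjusted p = 4.1e-07) and 0.47 ± 0.07 with the label LPA (adjusted p = 6.7e-05), while the label 1,25D gave −0.09 ± 0.07 (adjusted p = 0.411). Ret, the signalling receptor, had 26 counts over all libraries and was at 0 in 14 of them. Of 9 genes of the GDNF family list tested among 13, 2 rose with both agents at 8 h, Gdnf and Gfra1. The label LPA had 3 that rose, these 2 and Ncam1 (0.35 ± 0.07), an adhesion molecule that can also bind GDNF, and Artn, which encodes the related ligand artemin, fell by 1.14 ± 0.34. With the label 1,25D at 8 h, and with both agents and the label 1,25D at 2 h, Gdnf alone passed the test, and none passed with the label LPA at 2 h. The list median ran from −0.15 with the label LPA at 2 h to 0.66 with the label LPA at 8 h.

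The next list holds genes that process neurotrophin precursors or control the proteases that do so. Of 12 tested among 13, 3 rose and 1 fell with both agents at 2 h, and 3 rose with the label 1,25D, while none passed with the label LPA. The 3 were Timp1, an inhibitor of matrix metalloproteinases, Plaur, the urokinase receptor, and Plau, urokinase itself. Plaur averaged 195 ± 15.0 CPM with both agents and 213 ± 29.5 CPM with the label 1,25D at 2 h, against 67.0 ± 1.42 CPM with vehicle, and its log2 changes were 1.54 ± 0.09 and 1.67 ± 0.09. At 8 h 2 rose and 2 fell with both agents: Timp1 was higher by 2.01 ± 0.10 and Plaur by 0.32 ± 0.10, and Plau was at −0.85 ± 0.11 on the log2 scale. Timp1 averaged 867 ± 125 CPM with both agents at that time, against 216 ± 12.2 CPM with vehicle. The vehicle levels of these genes themselves differed between 8 h and 2 h. The log2 difference in vehicle was −1.39 ± 0.10 for Plaur (adjusted p = 2.9e-09), −0.51 ± 0.10 for Plau (adjusted p = 0.0016) and 0.43 ± 0.10 for Timp1 (adjusted p = 0.0036). In the 8 h libraries labelled LPA 4 genes fell and none rose: Plaur (−0.50 ± 0.10), Plau (−0.94 ± 0.11), Plat, the tissue plasminogen activator (−0.40 ± 0.07), and Mmp2. With the label 1,25D at 8 h 2 rose, Timp1 and Plaur, and Mmp2 fell. Mmp2, a matrix metalloproteinase, was also the gene that fell at 2 h and, beside Plau, at 8 h with both agents; it was named after its values were seen. The list median ran from −0.23 with the label LPA at 8 h to 0.23 when both agents had been given for 2 h.

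**Figure D4:**
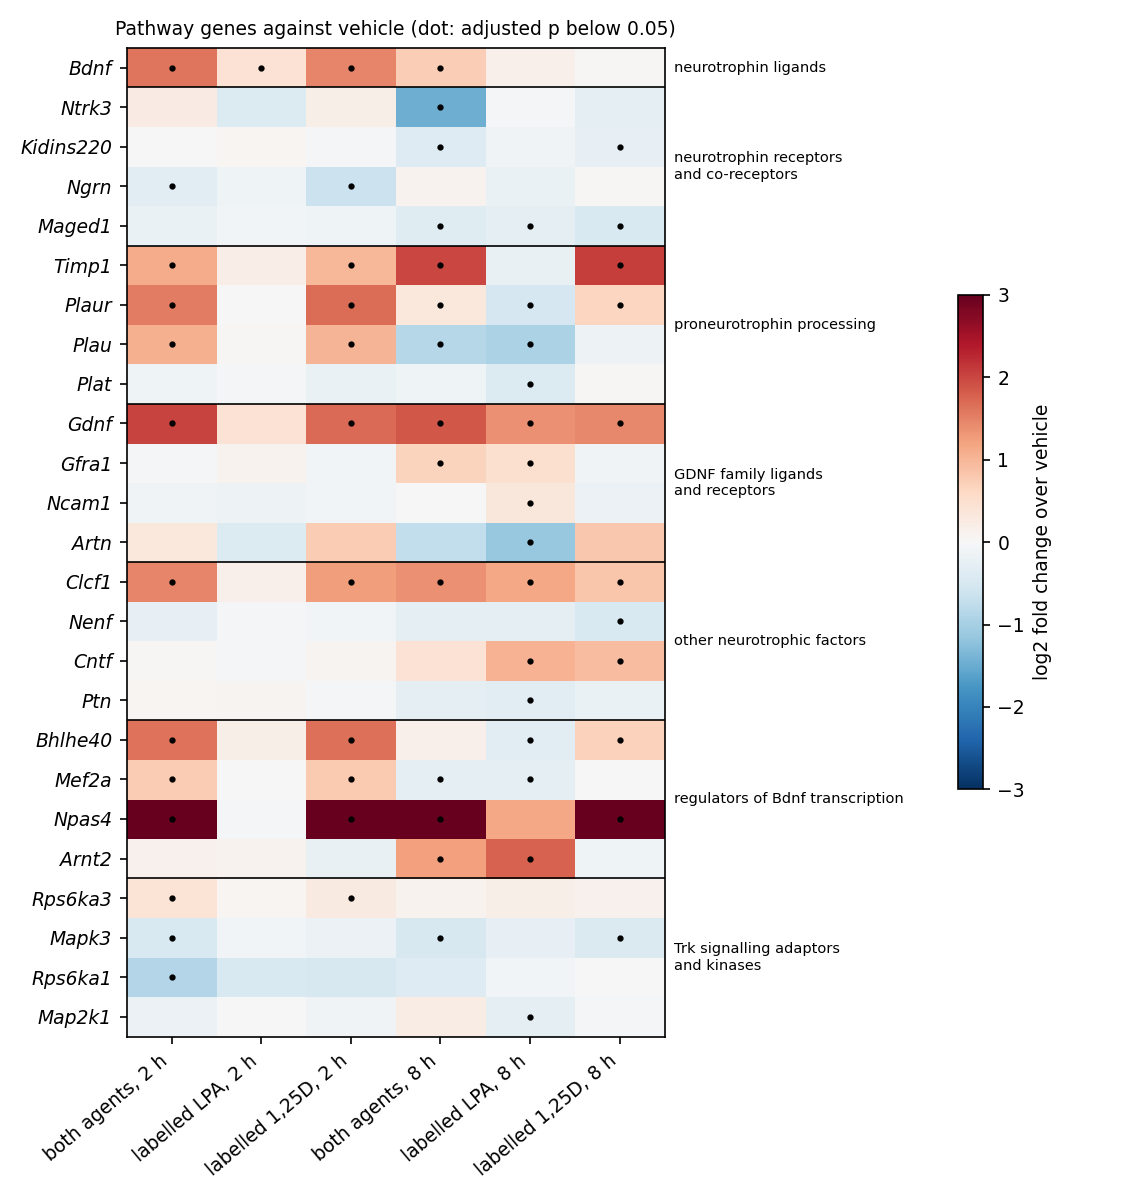
Log2 fold change over vehicle (colour, cut at −3 and 3) of pathway genes in the 6 comparisons with vehicle, grouped by list; dots mark an adjusted p below 0.05. Plau is at 1.07 with both agents at 2 h and at −0.85 with both agents at 8 h, and Gdnf has a dot in every column but the label LPA at 2 h.

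Other neurotrophic factors included Clcf1, a cytokine of the CNTF receptor, which was also the gene closest to Gdnf over the libraries. It rose with both agents by 1.46 ± 0.16 at 2 h and 1.37 ± 0.16 at 8 h, and with the label 1,25D by 1.25 ± 0.16 and 0.83 ± 0.16. The label LPA gave 0.15 ± 0.16 at 2 h, where it missed the threshold (adjusted p = 0.673). At 8 h Clcf1 was higher with this label than with vehicle by 1.16 ± 0.16 (adjusted p = 2.5e-05). All 8 h changes of Clcf1 are set against a vehicle level lower than at 2 h (log2 difference −0.89 ± 0.16, adjusted p = 0.0006). With the label LPA it stood at 39.1, 36.2 and 37.7 CPM at 2 h and 34.5, 47.6 and 40.6 CPM at 8 h. Of 8 genes tested among 10, Clcf1 was the only one to pass at 2 h and with both agents at 8 h. Cntf, ciliary neurotrophic factor, was higher than vehicle at 8 h with the labels LPA (1.04 ± 0.28) and 1,25D (0.92 ± 0.28). Its vehicle level was itself lower at 8 h than at 2 h (log2 difference −0.95 ± 0.28, adjusted p = 0.0276). Ptn, pleiotrophin, and Manf fell with the label LPA at 8 h, and Nenf fell with the label 1,25D at 8 h by 0.46 ± 0.12. The list median ran from 0.07 to 0.37, and Manf was named after its value was seen.

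All 16 listed regulators of Bdnf transcription were tested. With both agents at 2 h 5 rose and 1 fell, and with the label 1,25D 3 rose and 1 fell. Bhlhe40, a basic helix-loop-helix repressor, rose by 1.63 ± 0.07 and 1.66 ± 0.07, and Mef2a, a calcium-responsive activator, by 0.76 ± 0.06 and 0.78 ± 0.06. Npas4, an activity-dependent activator, rose by 3.15 ± 0.44 and 3.31 ± 0.44. Creb1 (0.26 ± 0.07, adjusted p = 0.0149) and Crem (0.52 ± 0.15, adjusted p = 0.0179) rose with both agents but did not pass with the label 1,25D. Usf1 was the gene that fell at 2 h, at −0.46 ± 0.07 with both agents and −0.41 ± 0.07 with the label 1,25D. Creb1, Crem and Usf1 were named after their values were seen. At 8 h Mef2a fell with both agents (−0.26 ± 0.06, adjusted p = 0.0045) and with the label LPA (−0.29 ± 0.06, adjusted p = 0.003), and Bhlhe40 fell with the label LPA (−0.31 ± 0.07) and rose with the label 1,25D (0.68 ± 0.07). Also at 8 h Npas4 was higher with both agents (3.36 ± 0.78) and with the label 1,25D (4.73 ± 0.69). Npas4 was low throughout, with 0 to 96 counts per library and a median of 0.251 CPM. Its 8 h changes are set against a vehicle level that was itself lower than at 2 h (log2 difference −3.50 ± 0.76). Arnt2, the dimer partner of NPAS4, rose at 8 h with both agents (1.22 ± 0.24) and with the label LPA (1.76 ± 0.24). At 8 h 2 rose and 2 fell with both agents, 2 rose and 2 fell with the label LPA, and 4 rose and 1 fell with the label 1,25D, while none passed with the label LPA at 2 h. The list median ran from −0.11 to 0.35, the ends being the label LPA at 2 h and at 8 h.

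Of the 14 kinases and adaptors downstream of Trk receptors, all tested, 1 rose and 3 fell with both agents at 2 h, where 19.9% of all tested genes were called in either direction. Rps6ka3 rose by 0.41 ± 0.07, and Mapk3 (−0.46 ± 0.08), Rps6ka1 (−0.87 ± 0.16) and Gab1 fell. With the label 1,25D at 2 h Rps6ka3 rose by 0.27 ± 0.07, and none passed with the label LPA. At 8 h 2 fell with both agents, Mapk3 (−0.48 ± 0.08) and Gab1. Sos1 rose and Map2k1 fell (−0.30 ± 0.08) with the label LPA, and with the label 1,25D Sos1 rose and Mapk3 fell (−0.42 ± 0.08). Each 8 h comparison with vehicle thus called 2 of the 14, where between 12% and 16.8% of all tested genes were called. Gab1 and Sos1 were named after their values were seen, and the list median ran from −0.12 to 0.14.

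The marker lists of other cell types did not all stay level between groups. Schwann cell and glial markers summed at 2 h to 1.79 to 2.40 TPM with both agents, 2.75 to 3.05 TPM with the label LPA and 1.86 to 2.19 TPM with the label 1,25D, against 2.81 to 4.38 TPM with vehicle. At 8 h they summed to 1.41 to 2.30 TPM with both agents, 2.42 to 3.95 TPM with the label LPA and 1.52 to 2.08 TPM with the label 1,25D, against 3.56 to 4.46 TPM with vehicle. At both times the glial sums with both agents and with the label 1,25D lay wholly below vehicle, and those with the label LPA overlapped it. Neuron markers summed at 2 h to 2.71 to 3.24 TPM with both agents, 2.52 to 4.0 TPM with the label LPA and 4.17 to 4.70 TPM with the label 1,25D, against 4.51 to 5.26 TPM with vehicle. At 8 h the neuron markers summed to 2.79 to 3.30 TPM with both agents, 2.87 to 5.45 TPM with the label LPA and 3.71 to 4.41 TPM with the label 1,25D, against 3.83 to 4.85 TPM with vehicle. With both agents the neuron sums lay wholly below vehicle at both times, and with the label LPA at 2 h. Macrophage markers at 8 h summed to 14.0 to 14.8 TPM with the label LPA, wholly above vehicle (11.2 to 13.5 TPM). They overlapped vehicle in the other comparisons. Osteocyte markers at 8 h summed to 80.8 to 90.7 TPM with the label 1,25D, wholly above vehicle (56.8 to 75.2 TPM). They too overlapped vehicle otherwise. The part of any marker list in the values of Bdnf, Gdnf, Sort1 and Ntrk3 was not tested.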

How the data were processed

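RNA of 24 Ocy454 libraries (8 groups of 3) was extracted with an RNeasy kit and made into DNBSEQ libraries, per the labels' protocols. The authors deposited, per the file headers, an estimated count and a TPM for each of 139145 Ensembl transcripts in every library. The genome build was mm39, per the submitters' processing notes; neither they nor the other sources used here name the quantifier. Groups follow the sample titles.

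Transcripts were assigned to genes with GENCODE M21, which is on GRCm38 and gave names and transcript starts only; 135078 matched, holding 99.45 to 99.60% of counts. Estimated counts, rounded after summing, covered 49172 genes. edgeR 4.0.16 (R 4.3.3) with TMM scaling and filterByExpr (minimum count 10) fitted all 24 libraries together: 16424 genes, 16 residual degrees of freedom, a biological coefficient of variation of 0.131, a quasi-likelihood F test, and Benjamini-Hochberg adjustment over all tested genes with a threshold of 0.05. The step was tested on simulated data. Intervals of count ratios are exact and cover counting error only. No library repeats another: within groups chi-square over its degrees of freedom was 7.83 to 74.7, where sampling noise alone gives about 1.

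The members and lists were chosen with earlier results of these data known. Within each list the genes named are up to 4 with the smallest p in a comparison with vehicle, and all 5 members; likeness is the largest 3 Pearson correlations of log2 CPM (prior count 2). Some genes of the fixed lists, 4 in number, are not reported here and are outside all list counts and marker sums; the next gene by the naming rule took the place of any that met it. Replicate numbers were not used to pair the libraries: 2 of 18 same-numbered pairs of a treated group and vehicle deviated together with r above 0.1 (range −0.254 to 0.355). Both pairs were of both agents and vehicle at 8 h, replicate 2 (r = 0.355) and replicate 3 (r = 0.253). What these libraries share was not tested. Alternatives were median-of-ratios scaling, no filter, DESeq2 1.42.0, the compared groups alone, the replicate block, length-scaled TPM and leaving out each library.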

Additional observations from a re-analysis of the deposited data

Results flagged for a closer look

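Treatment effects that differed between 2 h and 8 h by a test of the difference itself (edgeR, same fit) are singled out. The effect of the label 1,25D on Bdnf differed by −1.45 log2 units (8 h minus 2 h, adjusted p = 1.19e-06), with levels of 16.8 ± 1.29 CPM against 16.6 ± 2.15 CPM with vehicle at 8 h, and 48.9 ± 0.831 CPM against 17.6 ± 1.40 CPM with vehicle at 2 h (SD, n = 3). The effect of both agents on Bdnf differed by −0.86 (adjusted p = 0.000275), with 27.7 ± 3.68 CPM at 8 h and 53.3 ± 3.68 CPM at 2 h. The effect of the label LPA on Gdnf differed by 0.95 (adjusted p = 0.00529), with 25.7 ± 4.43 CPM against 9.87 ± 1.25 CPM with vehicle at 8 h, and 28.3 ± 1.52 CPM against 21.0 ± 2.93 CPM with vehicle at 2 h. All 3 kept their direction and their call under each alternative run. Which single agent these libraries received is uncertain, since Cyp24a1 and Vdr go against their titles.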

How the results depend on the processing

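Among 666 recomputations of 48 results for Bdnf, Gdnf and Sort1, 630 kept direction and side of the threshold, 34 lost a call, 2 gained one and 0 of them turned a called direction; 41 results changed under none. The number of the 3 genes called moved as follows; the cause was not tested. Median-of-ratios scaling gave 1 for both agents against the label 1,25D at 8 h, where TMM gave 2. No filter gave 2 for the label LPA against vehicle at 2 h, where the filter gave 1. DESeq2 gave 2 for the label 1,25D against vehicle at 8 h, where edgeR gave 1. The compared groups alone, with fewer libraries, gave 0 for the label LPA at 2 h, 1 for both agents against each single label at 8 h (2 in the joint fit) and 0 for the interaction at 8 h (2 in the joint fit). Length-scaled TPM gave 0 for the label LPA at 2 h and 1 for both agents against the label 1,25D at 8 h. The replicate block gave the same 0 and 1, and the labels do not say that the replicate numbers pair libraries. Leaving out 1 library gave 0 to 0 for the label LPA at 2 h, 1 to 2 for both agents against the label 1,25D and against the label LPA at 8 h, and 0 to 2 for the interaction at 8 h. Depth limits Ntf3 and Ngfr, whose 7 and 27 counts in all were too few to pass the filter on low counts.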
